A study of Mus musculus with 2 samples.

Results

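The barcodes described here were those with 10 or more Malat1 UMIs (unique molecular identifiers, each counting 1 captured RNA molecule) among all deposited barcodes of 2 single-cell libraries of mouse dermis. They numbered 50 of 6462 barcodes, 39 of 1415 in the untreated (UT) library and 11 of 5047 in the imiquimod (IMQ) library. They were compared within each library with the barcodes that had 0 Malat1 UMIs and 200 or more detected genes, called Malat1-free below, of which there were 1225 in UT and 1387 in IMQ. Because Malat1 chose the barcodes, its own level is a description.

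Malat1 is a long noncoding RNA that stays in the nucleus and gathers in nuclear speckles, the bodies that hold splicing factors. In most intact cells it is among the most abundant long noncoding RNAs. Neat1, its neighbour in the genome, is the architectural RNA of paraspeckles, and Meg3 is an imprinted nuclear long noncoding RNA of mesenchymal cells. Igfbp3 encodes a secreted binding protein of the insulin-like growth factors, and Krt10 is a keratin of the suprabasal epidermis.

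Both libraries held CD45-tdTomato+ live cells sorted from the dermis of C57BL/6 PdgfraDreER-tdTomato mice aged 8 weeks, in which tamoxifen-induced Dre-rox recombination marks cells of the Pdgfra-expressing, fibroblast lineage. UT was untreated skin, and IMQ was skin exposed for 7 days to imiquimod, a Toll-like receptor agonist that induces psoriasiform inflammation. The reporter marks cells that expressed Pdgfra at the time of recombination and their descendants, the gate excludes CD45+ immune cells, and the epidermis had been removed with Dispase II. The tdTomato transcript was not among the measured features. With 1 library per condition, library and treatment cannot be told apart, no test was possible, and every interval below is a 95% interval for counting error only.

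The libraries held 1524079 UMIs in UT and 2358303 in IMQ. The Malat1-rich barcodes were 2.76% of the barcodes in UT (Clopper-Pearson interval 1.97 to 3.75) and 0.218% in IMQ (0.109 to 0.390), yet they held 22.5% and 4.52% of the library's UMIs. The denominators differ in makeup, since 3621 IMQ barcodes but only 64 UT barcodes had under 200 genes; among barcodes with 200 or more genes the shares were 2.89% and 0.771%. A single cell barcode was shared by both libraries, and it was not a Malat1-rich one. A doublet score marked none of the Malat1-rich barcodes among the 15 UT and 16 IMQ barcodes with the highest scores. Those numbers were set by an assumed doublet rate of 0.8% per 1000 barcodes. As given below, 4 Malat1-rich barcodes carried genes of more than 1 cell type list, and whether any was a doublet was not tested further.

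Malat1 was close to an all-or-none feature of these barcodes. The 39 UT members held 20731 of the library's 20857 Malat1 UMIs (99.4%), and the 11 IMQ members held 6442 of 6584 (97.8%). In UT the members carried between 15 and 2985 Malat1 UMIs with a median of 418, and in IMQ between 10 and 3241 with a median of 468. Of the remaining barcodes, 1283 in UT and 4932 in IMQ had 0 Malat1 UMIs and 80 and 86 had exactly 1. Just below the limit, the next UT barcode had 8 Malat1 UMIs and the next IMQ barcodes had 6. In IMQ the wider break lay above the limit, between members with 17 and 174 Malat1 UMIs. The lowest members were an IMQ barcode with 10 Malat1 UMIs of 694, an IMQ barcode with 17 of 612, and a UT barcode with 15 of 615, of whose UMIs 53.5% were mitochondrial.

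**Figure D1:**
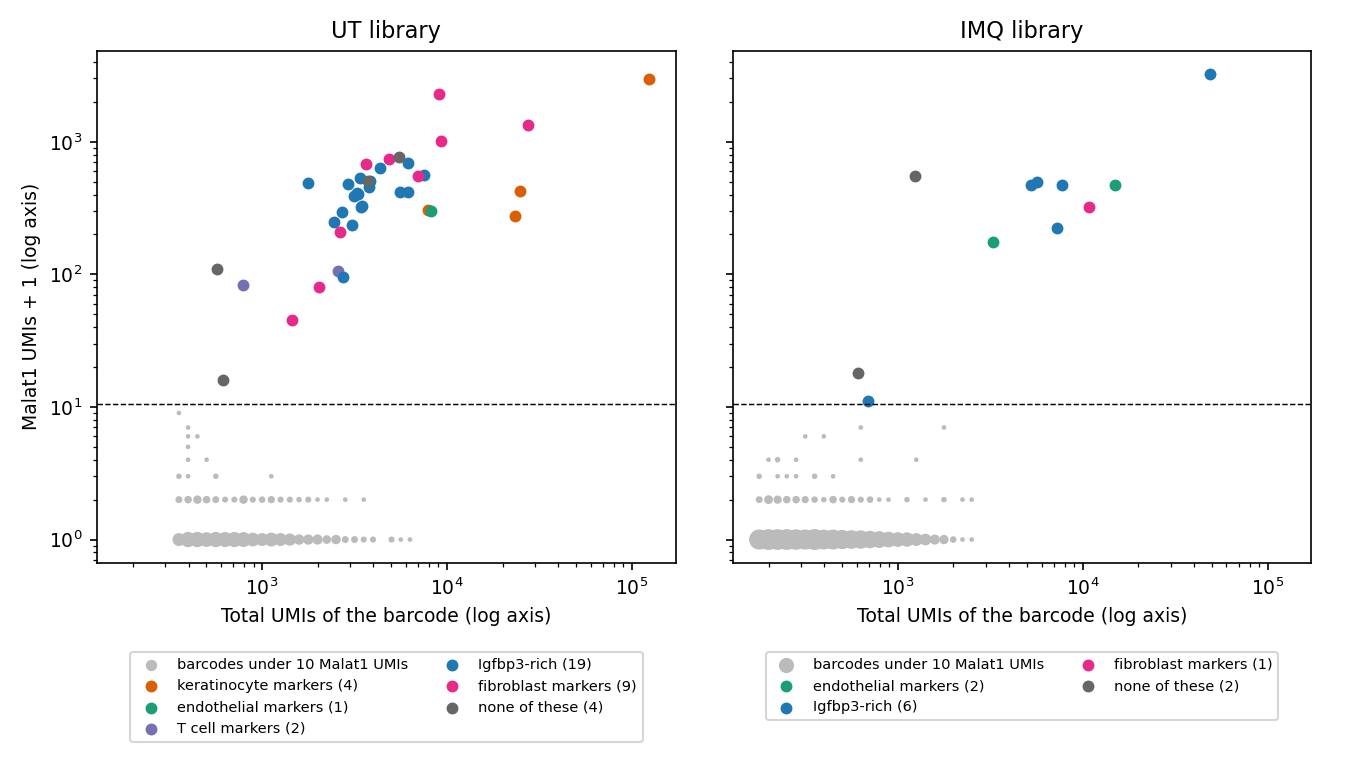
Malat1 UMIs + 1 of each barcode against its total UMIs, both on log axes, in UT (left) and IMQ (right), with members coloured by marker set, other barcodes in grey (larger points stand for more barcodes) and a dashed line at the limit. The members lie at 10 to 3241 Malat1 UMIs, above every other barcode, which have at most 8.

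The members were also the deep barcodes of each library. They had a median of 3648 UMIs in UT (568 to 124192) and 5689 in IMQ (612 to 48937), against a median of 698 in the Malat1-free barcodes of each. All 10 of the deepest UT barcodes and 8 of the 10 deepest IMQ barcodes were members. The member rule, 10 or more Malat1 UMIs whatever the depth, favours deep barcodes, and the Malat1-free rule favours shallow ones. These rules therefore build in part of the depth contrast, and how large a part was not tested. A single barcode held 36.3% of the UMIs of the UT members and another 46.0% of those of the IMQ members, so sums are given with and without that barcode. The barcodes are numbered below by depth within each library, from UT barcode 1 and IMQ barcode 1, the deepest, to UT barcode 39 and IMQ barcode 11. Across members, Malat1 UMIs went with depth (Spearman's rho 0.70 over 39 UT barcodes and 0.55 over 11 IMQ barcodes, a description in which both measures share the barcode's total).

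Malat1 made up 1.19 to 27.7% of a member's UMIs in UT (median 10.2%) and 1.44 to 44.9% in IMQ (median 5.29%). Mitochondrial transcripts took a median of 1.93% in the UT members against 3.20% in the Malat1-free barcodes, and 2.34% against 6.24% in IMQ, although 4 members in each library had over 5%. Ribosomal protein mRNAs, which are translated in the cytoplasm, had a median share of 11.0% in UT members against 20.8% in Malat1-free barcodes, and of 17.4% against 18.1% in IMQ. Over summed UMIs their share in UT was 20.6% against 21.4%, so that the lower median did not show in the sum, of which the deepest barcode, at 28.3% ribosomal, was a large part. In the UT barcodes the Malat1 share was inversely related to both the ribosomal share (rho -0.45) and the mitochondrial share (-0.51), shares of the same total, while in the 11 IMQ barcodes the rho values were -0.29 and -0.10. Gm42418, a locus that overlaps ribosomal RNA sequence, took 2.75% of member UMIs in IMQ against 15.2% of Malat1-free UMIs.

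The members were not 1 cell type. Their marker genes divided them into 6 sets, by limits chosen after the values were seen: 10 or more of 16 keratinocyte genes, 6 or more of 12 vascular endothelial genes, 4 or more of 12 T and innate lymphoid genes, then Igfbp3 at 0.3% or more of UMIs, then the 12 fibroblast genes at 2% or more, and the remainder. In UT these rules gave 4 keratinocyte-marker, 1 endothelial-marker, 2 T cell-marker, 19 Igfbp3-rich and 9 fibroblast-marker barcodes, with 4 left over. In IMQ they gave 2 endothelial-marker, 6 Igfbp3-rich and 1 fibroblast-marker barcodes, with 2 left over. No member carried 3 or more genes of the lymphatic endothelial, mural, myeloid, adipocyte, skeletal muscle or red blood cell lists after thinning to 1100 UMIs, in either library. For the hair follicle epithelium list 1 of 36 UT members and 0 of 9 IMQ members of that depth did.

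The genes proposed to mark the whole set fell into different members. Of 1067 Krt10 UMIs in the UT members, 1058 lay in 3 keratinocyte-marker barcodes. Of 188 Meg3 UMIs, 164 lay in the 9 fibroblast-marker barcodes, which all carried it, and the other 24 lay in 6 of the 19 Igfbp3-rich barcodes. Of 1037 Igfbp3 UMIs, 872 lay in the 19 barcodes defined by it, 142 in the keratinocyte-marker barcodes and 8 in the fibroblast-marker barcodes. Neat1 had at least 1 UMI in 25 of 39 UT and 10 of 11 IMQ members, and Igfbp3 in 29 and 7. In IMQ, Krt10 had 2 UMIs in 1 member and Meg3 had 4 UMIs, all in the fibroblast-marker barcode.

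The 4 keratinocyte-marker barcodes were UT barcodes 1, 3, 4 and 8, and they had low Malat1 shares of 2.40%, 1.72%, 1.19% and 3.85%. By keratin genes they fell into 2 pairs. UT barcodes 1 and 8 carried the basal keratins Krt15 (1316 and 294 UMIs) and Krt5 (1003 and 41), with 7 and 0 Krt10 UMIs. They also carried 3 and 5 of 13 hair follicle epithelium genes (62 and 15 UMIs), against 1 and 0 genes in UT barcodes 3 and 4. UT barcodes 3 and 4 had 0 Krt15 and 0 Krt5 UMIs, 545 and 506 Krt10 UMIs, 156 and 165 Krt1 UMIs and 390 and 336 UMIs of Krt77, the pattern of suprabasal keratinocytes. UT barcodes 1 and 3 also carried 8 and 3 fibroblast genes, and UT barcode 1 had 127 Igfbp3 UMIs.

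UT barcodes 3 and 4 were nearly alike gene by gene. They held 24879 and 23202 UMIs, and over the 709 genes with 10 or more UMIs in the pair the squared difference divided by its counting variance averaged 1.09, where counting error alone gives a mean of 1 with a standard deviation of 0.053. Among the 657 UT member pairs with 50 or more such genes this was the lowest value, and the median pair had 8.77. Malat1 itself was the gene that differed most between them, with 427 against 275 UMIs, and without it the mean was 1.06. Their barcode sequences differed at 12 bases. Whether they came from 1 cell was not tested. Leaving out UT barcode 4 gave 2885 genes higher and 1027 lower in UT, against 2981 and 1064 with it, and a Krt10 log2 ratio of 5.22 against 6.05. UT barcodes 1 and 8 had a mean of 4.07 (counting standard deviation 0.034), so they were less alike gene by gene.

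The endothelial-marker barcodes were UT barcode 7, which carried 12 of 12 endothelial genes, among them Cldn5 (17 UMIs), a tight junction protein, and Vwf (13), and IMQ barcodes 2 and 8, which carried 11 and 7. The T cell-marker barcodes were UT barcode 32, with 8 genes of the list, including Cd3g (13 UMIs), Nkg7 (12) and Cd3e (9), and UT barcode 37, with 4. UT barcode 32 also had 4 UMIs of Ptprc, which encodes CD45, the protein the sort gated out, and UT barcode 37 had 0. Mitochondrial shares were 9.52% and 19.5% in these T cell-marker barcodes. The barcodes left over included UT barcode 14, in which 14.4% of UMIs came from the list of immediate early and heat shock genes. Others were UT barcode 38, at 53.5% mitochondrial UMIs, and IMQ barcode 9, with 554 Malat1 UMIs among 1235 (44.9%). Genes of at least 2 of the fibroblast, keratinocyte, endothelial, T cell and myeloid lists, at 3 or more genes each, stood in 4 members, namely UT barcodes 1 and 3 and IMQ barcodes 1 and 2.

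Fewer of the members than of the Malat1-free barcodes carried fibroblast RNA at equal depth. To set barcodes of unlike depth side by side, each was thinned to 1100 UMIs, which left 36 UT and 9 IMQ members and 287 and 192 Malat1-free barcodes. At this depth 3 or more of 12 fibroblast genes were present in 19 of 36 UT members (52.8%) and in 281 of 287 Malat1-free barcodes (97.9%), and in 3 of 9 IMQ members (33.3%) against 187 of 192. Without thinning the members' shares were 28 of 39 (71.8%) and 8 of 11 (72.7%), at median depths of 3648 and 5689 UMIs against 698. Pdgfra, the gene that drives the recombinase, had a UMI in 3 of 36 thinned UT members and 9 of 287 Malat1-free barcodes, and in 2 of 9 IMQ members (22.2%, interval 2.81 to 60.0) against 9 of 192 (4.69%, 2.17 to 8.71). Without thinning it had one in 13 of 39 UT and 5 of 11 IMQ members, against 31 of 1225 and 30 of 1387.

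Neat1, Meg3 and Igfbp3 were more often present in the members at equal depth. A Neat1 UMI was present in 12 of 36 thinned UT members against 1 of 287 Malat1-free barcodes and in 8 of 9 IMQ members against 0 of 192, where 3 counts, the limit used here for a count of 0, would be 1.56% and the Clopper-Pearson limit is 1.90%, while unthinned 25 of 39 and 10 of 11 members had it. Meg3 was present in 11 of 36 against 1 of 287 in UT (15 of 39 unthinned) and in 1 of 9 against 0 of 192 in IMQ. Igfbp3 was present in 22 of 36 against 3 of 287 in UT and in 6 of 9 against 18 of 192 in IMQ (29 of 39 and 7 of 11 unthinned). The immediate early transcription factor genes Fos and Jun were present in 19 and 22 of 36 UT members against 19 and 14 of 287, and in 3 and 4 of 9 IMQ members against 15 and 6 of 192. Krt10 differed less, with 3 of 36 members (8.33%, interval 1.75 to 22.5) against 12 of 287 Malat1-free barcodes (4.18%, 2.18 to 7.19). Members also held more distinct genes at equal depth, with a median of 645 against 529 in UT and 589 against 371.5 in IMQ.

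**Figure D2:**
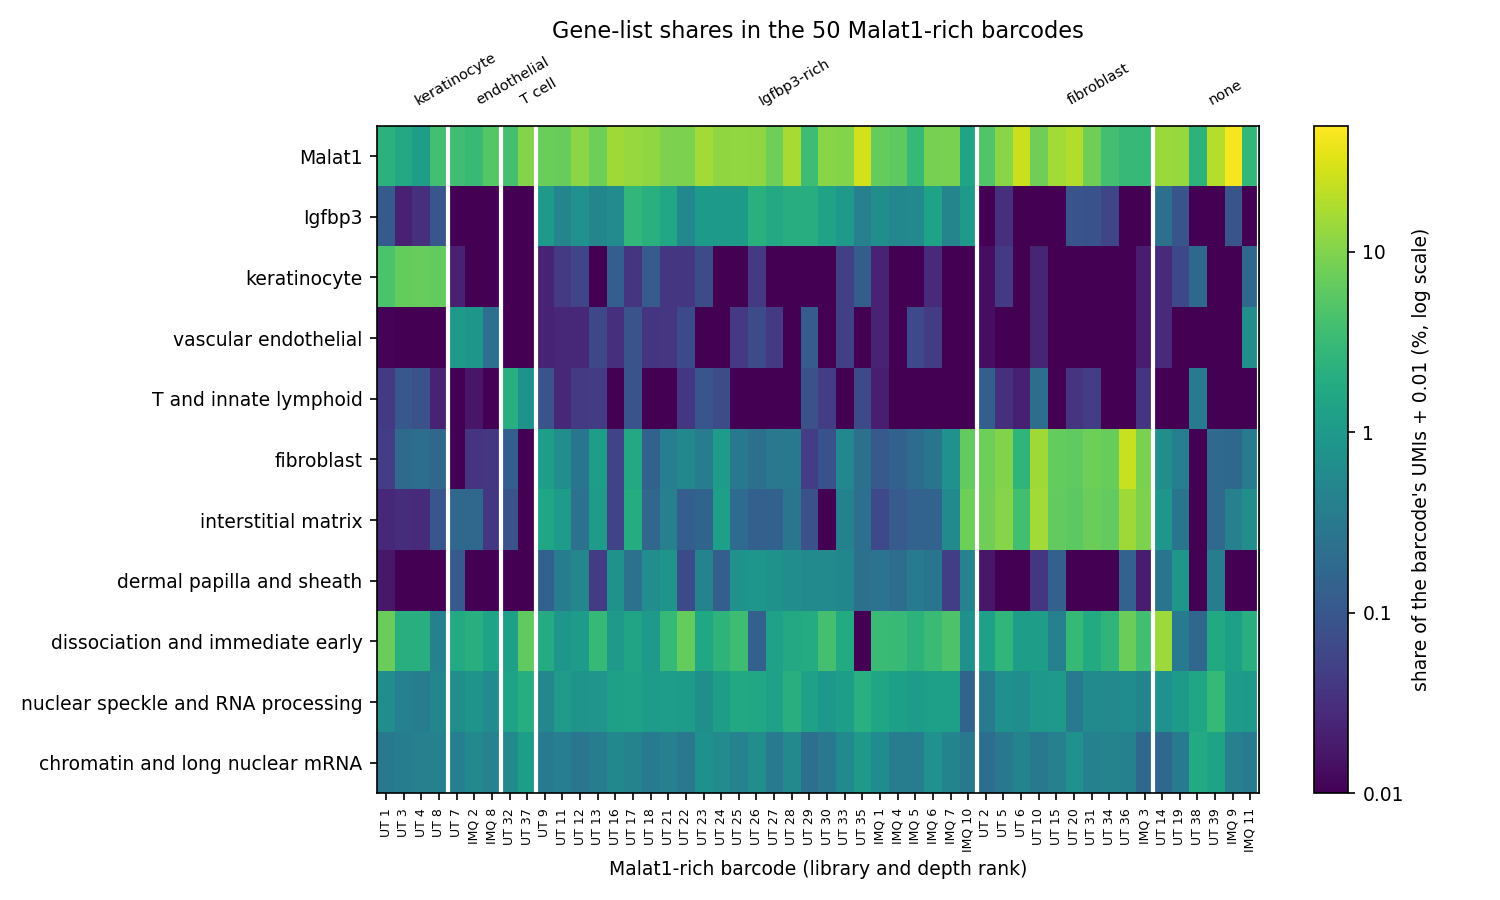
Share of each member's UMIs (percent + 0.01, colour on a log scale) held by Malat1, Igfbp3 and 9 gene lists, with 1 column for each of the 50 members of both libraries, grouped by marker set. Keratinocyte genes fill 4 UT columns, fibroblast genes are at 2.60 to 24.3% in the 9 fibroblast-marker UT barcodes and at most 1.73% in the 19 Igfbp3-rich UT ones, and dermal papilla and sheath genes are at 0.0360 to 0.857% in the Igfbp3-rich UT columns, some of which lie below the highest fibroblast-marker UT one at 0.137%. The left-over UT barcode 19 is above them all, at 0.884%.

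Gene levels were compared as the log2 ratio of CPM (counts scaled to a fixed total of UMIs) of the summed members over the summed Malat1-free barcodes. A gene was called when it had 10 or more UMIs over both and differed by at least 1 on the log2 scale, and a gene with 0 UMIs on 1 side was set to 3 counts there, so that its ratio is a bound. A gene that is scarce in the Malat1-free barcodes reaches this minimum only where the members hold it, so counts over lists with few genes compared are descriptions. In UT, 2981 of 8254 genes were higher in the members (36.1%) and 1064 were lower (12.9%), and in IMQ 2787 of 6118 were higher (45.6%) and 604 lower (9.87%). The counting interval was clear of 0 for 28.7% and 8.86% of genes in UT and for 33.4% and 5.12% in IMQ. Of 5900 genes with enough UMIs in both libraries, 1357 were higher in both (23%) and 319 lower in both (5.41%). Without the deepest barcode, 37% and 10.8% were called in UT, 38.8% and 7.43% in IMQ, and 19.2% and 3.4% in both.

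The balance of higher and lower calls rested on the scale. Higher genes were 73.7% of the called genes in UT and 82.2% in IMQ on CPM, but 43.6% and 33.0% with TMM scaling and 46.2% and 32.2% with median-of-ratios scaling. TMM moved every ratio down by 0.66 in UT and 1.50 in IMQ. The median gene lay at 0.47 in UT and 0.93 in IMQ on CPM (0.74 in IMQ with genes of no direction set to 0). With a minimum of 50 UMIs per gene the shares were 50.3% and 51.8%, and the medians -0.04 and 0.01, while a minimum of 1 UMI gave 82.2% and 90.5%. The IMQ share was 71.4% when CPM left out the mitochondrial genes, the ribosomal protein genes, Gm42418 and AY036118, 70.5% with barcodes of at most 5% mitochondrial UMIs, 70.2% against Malat1-free barcodes with 500 or more genes and 64.3% with each barcode weighted equally. Gene lists are therefore read below against the share of all genes called and, where it matters, after TMM scaling.

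Transcripts of speckle proteins and chromatin regulators, and of the listed nuclear long noncoding RNAs with enough UMIs, were higher in the members. Beside Malat1, which chose the members, the other 6 nuclear long noncoding RNAs with enough UMIs in UT and the other 4 in IMQ were called higher, of 13 in the files. Over all genes 36.1% and 45.6% were higher. These counts only describe, since genes scarce in the Malat1-free barcodes reach the UMI minimum through the members. Neat1 had 101 UMIs in 25 UT members and 12 in the Malat1-free barcodes, a log2 ratio of 4.73 (interval 3.86 to 5.73), and 175 against 7 in IMQ, a ratio of 7.97 (6.90 to 9.31). The IMQ members, from IMQ barcode 1 to 11, held 88, 11, 34, 16, 4, 10, 7, 1, 3, 1 and 0 Neat1 UMIs, and the UT members 0 to 31 with a median of 1. Neat1 was thus spread over nearly all IMQ members, with 50.3% of its UMIs in the deepest. Meg3 stood at 6.41 (5.33 to 7.74) in UT, from 188 against 7 UMIs, and at 3.74 (1.18 to 6.51) in IMQ, where only 4 and 3 UMIs were counted.

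Of 24 nuclear speckle and RNA processing genes, 22 in UT and 24 in IMQ were higher and 0 lower, with median log2 ratios of 1.88 and 3.95. After TMM scaling 14 and 21 were still called higher. The splicing kinase gene Clk1 was the highest of them in UT (4.24) and Tra2b, a splicing activator gene, in IMQ (5.43), while the RNA helicase gene Ddx17 lay at -0.11 in UT. Of the genes for chromatin regulators and other long mRNAs, 18 of 24 in UT and 22 of 23 in IMQ were higher (medians 1.72 and 3.07; 12 and 14 after TMM scaling), led by the histone demethylase gene Jmjd1c (3.55 and 5.93), with Huwe1 lowest in UT (0.38) and Golga4 in IMQ (-0.13).

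The immediate early and heat shock genes, which respond within minutes to tissue handling among other stimuli, were higher throughout. All 21 tested in UT and all 20 in IMQ were called on CPM and after TMM scaling, with medians of 5.17 and 4.82, and the genes took 3.97% of member UMIs in UT against 0.226%. They lay from Jund (1.75) to the Hsp40 gene Dnajb1 (6.99) in UT and from Klf6 (3.01) to Nr4a1 (6.81) in IMQ. UT barcode 1 held 72.1% of the 1525 Jun UMIs, and its Fos count was 1694 where the median UT member had 3. Without that barcode 20 of 21 were higher, the median was 4.34, Jun was at 4.91 instead of 6.10 and Dnajb1 at 4.96.

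Fibroblast identity and matrix genes were lower. The 12 fibroblast genes took 1.79% of member UMIs against 10.7% in UT and 1.07% against 13.4% in IMQ. Of them 10 were lower in each library (medians -2.61 and -3.27), where 12.9% and 9.87% of all genes were. The exceptions included Pdgfra itself, at 0.82 (-0.07 to 1.67) in UT and 2.45 (1.54 to 3.32) in IMQ. Of the interstitial matrix genes, 15 of 20 in UT and 16 of 19 in IMQ were lower, with medians of -1.60 and -2.03. Sparc, a collagen-binding matrix protein gene, was the lowest in UT (-3.64) and Lum, for the collagen-fibril proteoglycan lumican, in IMQ (-5.50), while Col12a1 was higher in UT (1.24). Without the deepest barcode 10 and 11 matrix genes were lower. Without the 4 keratinocyte-marker barcodes, where 35.1% of 7398 UT genes were higher and 8.77% lower, 7 of 20 matrix genes were lower (median -0.53), 2 were higher, and 9 of 12 fibroblast genes were lower (median -1.54).

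Genes of general cytoplasmic function differed little on CPM. Among 18 cytosolic housekeeping genes 3 were higher and 3 lower in UT and 6 and 1 in IMQ (medians 0.02 and 0.30), with the actin-sequestering thymosin gene Tmsb10 lowest (-3.09 and -1.74). The shares of all genes higher and lower were 36.1% and 12.9% in UT and 45.6% and 9.87% in IMQ. Among 18 nuclear-encoded mitochondrial and energy genes 2 were higher and 3 lower in UT and 3 and 2 in IMQ, with the lactate dehydrogenase gene Ldha highest (1.41 and 2.04). The 13 mitochondrially encoded genes had medians of -0.76 and -1.15, and 3 and 9 of them were lower. None of the 81 ribosomal protein genes was called in either library on CPM, but after TMM scaling 11 were lower in UT and 78 in IMQ, so their direction against the median gene rested on the scale.

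Lists of other cell types followed the marker-bearing barcodes. All 16 keratinocyte genes were higher in UT (median 8.40). After removal of the keratinocyte-marker barcodes only 4 kept enough UMIs to be tested, of which 1 was higher. The keratinocyte, endothelial and T cell lists chose the marker sets, and genes scarce in the Malat1-free barcodes reach the UMI minimum through the members. Their counts here therefore only describe. Of the endothelial genes 4 of 5 in UT and 10 of 10 in IMQ were higher (medians 3.40 and 4.82, Flt1 at 7.85 in IMQ), and of the T and innate lymphoid genes 4 of 6 in UT (Cd3g 5.47) and 0 of 2 in IMQ. The myeloid genes were lower in 7 of 10 in UT, with the antigen presentation gene Cd74 at -7.44, and in 1 of 10 in IMQ. Over all genes 36.1% were higher and 12.9% lower in UT, and 45.6% and 9.87% in IMQ. Papillary fibroblast genes lay near these shares, with 4 of 10 higher and 2 lower in UT and 3 of 7 and 1 in IMQ. Among them the transcription factor gene Prdm1 reached 7.14 in IMQ. Fascial fibroblast genes were lower in 6 of 9 in UT and 3 of 9 in IMQ.

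The remaining lists were small, so their counts are descriptions. Of all genes, 36.1% were higher and 12.9% lower in UT, and 45.6% and 9.87% in IMQ. For Schwann and melanocyte genes 2 of 4 and 1 of 3 were higher, with the adhesion molecule gene Ncam1 highest (3.06 and 4.99), and for mural genes 1 of 4 and 1 of 6, the latter being Cspg4 (5.33). Adipocyte genes were higher in 0 of 2 and 1 of 2, hair follicle epithelium genes in 2 of 3 and 1 of 2, lymphatic endothelial genes in 0 of 1 and 0 of 2, and cell cycle genes in 1 of 3 and 2 of 3. Skeletal muscle and red blood cell genes had too few UMIs to be compared. Imprinted genes were higher in 1 of 7 and lower in 4 in UT, where Meg3 was the exception and Ndn was at -2.66, and higher in 2 of 5 in IMQ, where Plagl1 was at 5.91. Chemokine and cytokine genes were higher in 3 of 9 in UT, led by Cxcl14 (6.29, of which 90.6% of UMIs lay in UT barcode 1), and in 1 of 9 in IMQ, namely Cxcl1 (8.19), with 23 of its 29 UMIs in IMQ barcode 6.

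Interferon response genes differed between libraries in their counts. In UT 1 of 8 was higher and 4 lower, and in IMQ 8 of 12 were higher and 0 lower, with the interferon regulatory factor gene Irf1 highest in both (2.18 and 4.68). The shares of all genes higher and lower were 36.1% and 12.9% in UT and 45.6% and 9.87% in IMQ. After TMM scaling the IMQ list had 6 higher and 2 lower, and within the IMQ Igfbp3-rich barcodes alone 3 of 10 were higher (42.8% of all genes were). Genes of the insulin-like growth factor axis were split, with Igfbp3 highest in both libraries, Igfbp5 at -3.65 in UT and Igfbp6 at -3.06 in IMQ.

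**Figure D3:**
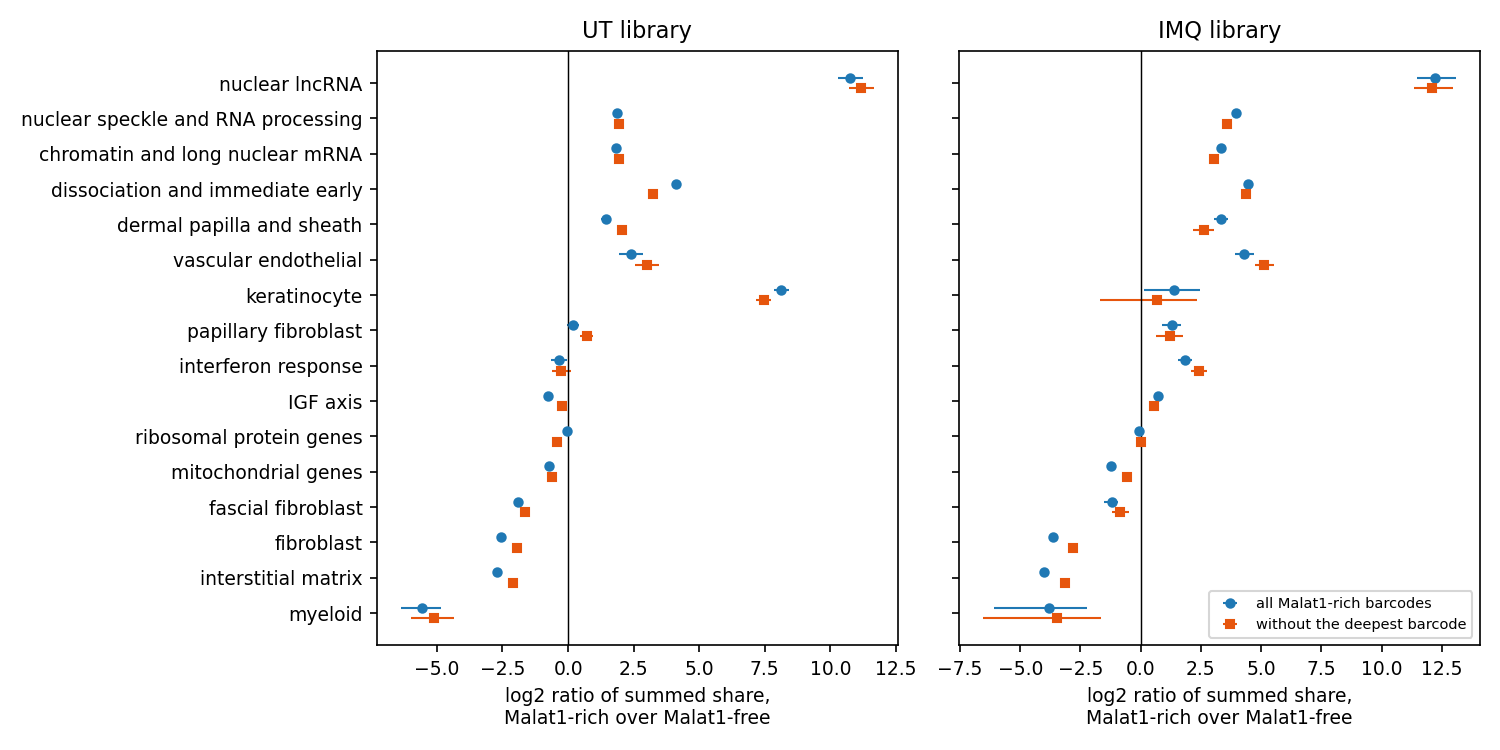
Log2 ratio of the summed UMI share of each gene list (CPM scale), members over Malat1-free barcodes, in UT (left) and IMQ (right), for all members (circles) and without the deepest barcode (squares), with bars for the 95% counting interval; the nuclear lncRNA list includes Malat1, which chose the members. The immediate early and heat shock list (3.97% against 0.226% of UMIs in UT) and the speckle and chromatin lists lie to the right of 0 in both libraries. The fibroblast (1.79% against 10.7% in UT) and matrix lists lie to the left.

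The genes with the largest ratios shared by both libraries, ranked without the deepest barcodes, included the immediate early genes Jun and Ier3. They also included the heat shock genes Hspa1a and Dnajb1. Prlr, the prolactin receptor gene, had 154 UMIs in 21 UT members and 86 in 4 IMQ members against 1 UMI in the Malat1-free barcodes of each library, with log2 ratios of 8.93 (6.43 to 14.24) and 9.75 (7.24 to 15.07). The anion transporter gene Slc26a7 stood at 6.07 and 7.82, the taurine transporter gene Slc6a6 at 5.72 and 7.85, and Rasd1, a Ras-related GTPase gene, at 5.60 and 8.24. Pappa2, which encodes a protease of insulin-like growth factor binding proteins, was at 6.15 and 6.54. The others of the 15 highest, beside Malat1 and Neat1, were Mast4 (6.28 and 5.91), Sbno2 (4.98 and 6.71), Map3k8 (4.75 and 4.71) and Tanc1 (5.66 and 3.81).

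The 15 lowest included the chemokine gene Ccl19 (-4.15 and -4.52), the retinal dehydrogenase gene Aldh1a1 (-4.10 and -4.50), Mfap4 of elastic fibres (-4.46 and -3.99), Sparc (-3.64 and -4.38), the procollagen peptidase gene Adamts2 (-3.59 and -3.31), Rarres2 (-3.33 and -5.26), the protease gene Ctsk (-3.30 and -4.79), Clec3b (-3.16 and -4.09) and Gpx3 (-3.08 and -3.62). C1qtnf3 had 13 UMIs against 561 in UT (-3.77) and 0 against 599 in IMQ, a bound of -4.31. The others were Gm2564, Ndufa4l2, Ppic, Clec11a and Tm7sf3, between -2.41 and -4.25. Sparc was counted in 26 of 39 UT members and 9 of 11 IMQ members, so it was scarce rather than missing. C1qtnf3, by contrast, was counted in none of the 11 IMQ members.

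The Igfbp3-rich barcodes were the most frequent set, 19 of 39 in UT and 6 of 11 in IMQ, and no barcode of the other sets lay close to their limit except UT barcode 14, at 0.219%. In UT they had 1775 to 7520 UMIs (median 3391), Malat1 at 3.48 to 27.7% (median 11.2%) and 7 to 109 Igfbp3 UMIs, which was 0.394 to 2.85% of their UMIs. In IMQ they had 694 to 48937 UMIs and 320, 39, 40, 80, 25 and 7 Igfbp3 UMIs in IMQ barcodes 1, 4, 5, 6, 7 and 10. The low end in IMQ was IMQ barcode 10 alone, and the other 5 had 5248 UMIs or more.

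Fibroblast genes were scarce in them, with 1 exception. They took 0.0367 to 1.73% of UMIs in the UT Igfbp3-rich barcodes (median 0.308%), and in IMQ 0.0981 to 6.48% (median 0.228%), the highest being IMQ barcode 10. That barcode, with 9 of 12 fibroblast genes and 7 Igfbp3 UMIs, met the limits of both sets and was counted here because Igfbp3 came first. Gene by gene its pair with the fibroblast-marker IMQ barcode 3 had a mean squared difference over counting variance of 1.54, the lowest of 52 IMQ pairs. This value is smaller for shallow barcodes, and IMQ barcode 10 had 694 UMIs, so the rank does not measure likeness. Summed, the list held 0.573% against 10.7% in the UT Malat1-free barcodes, where 11 of 12 genes were lower (10.5% of 6892 genes were), and 0.225% against 13.4% in IMQ, where 9 of 12 were lower (9.95% of 5849 genes), as were 9 of 12 without IMQ barcode 1 (5.19% of 5353 genes). Clec3b was the lowest in UT (-7.52) and Col1a2, a collagen I chain gene, in IMQ (-8.66). Pdgfra was the exception in both, at 2.12 and 2.95, with 10 UMIs in 7 of 19 and 18 in 5 of 6 barcodes. Col1a1 had 50 UMIs in 13 of the 19 UT barcodes, against 1469 in the 9 fibroblast-marker barcodes, each of which had between 5 and 400.

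Genes of the dermal papilla and sheath list were higher in them than in the Malat1-free barcodes. The dermal papilla is the mesenchymal signalling centre at the base of the hair follicle, and the list held 12 genes fixed with earlier results of these data known. Summed over all 12, whatever their counts, it held 321 UMIs in UT, 0.440% against 0.0430% in the Malat1-free barcodes, a log2 ratio of 3.35 (3.14 to 3.56). In IMQ it held 180 UMIs, 0.238% against 0.0168%, a ratio of 3.82 (3.52 to 4.13), and 3.72 without IMQ barcode 1. Lef1, a transcription factor gene of the Wnt pathway, had 23 UMIs in 12 of 19 UT barcodes and 0 in the Malat1-free and fibroblast-marker barcodes, and 32 in 3 of 6 IMQ barcodes, 27 of them in IMQ barcode 1. Crabp1, a retinoic acid binding protein gene, had 152 UMIs in 14 of 19 UT barcodes but also 417 in 176 Malat1-free barcodes, a ratio of 2.43. Other defining genes of that cell type were at or near 0, with 0 Corin and 1 Sox2 UMI in UT and 2 and 0 in IMQ, so no cell type name is given to these barcodes. Nor was the list particular to the Igfbp3-rich set. The left-over UT barcode 19, with Igfbp3 at 0.0804%, had the highest list share of any UT member, 0.884% from 33 UMIs. The left-over UT barcode 14 had 0.255%.

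Further genes were picked after their values were seen, and among them Prlr and Bcl2 were counted in most of these barcodes and in no fibroblast-marker one in UT. Prlr was also counted in UT members of neither set, and Bcl2 in such members is not given here. Prlr had 146 UMIs in 17 of 19 UT barcodes (0 to 29, median 6) and 0 in the 9 fibroblast-marker barcodes, and in IMQ it had 68, 5, 12, 1, 0 and 0 UMIs in barcodes 1, 4, 5, 6, 7 and 10. Bcl2, an apoptosis inhibitor gene, had 62 UMIs and was present in 19 of 19 UT and 6 of 6 IMQ barcodes and in none of the 9 fibroblast-marker barcodes. The Wnt inhibitor gene Dkk2 had 179 UMIs in 18 of 19 UT barcodes (median 9) against 60 UMIs in 42 Malat1-free barcodes. Dkk2 was also counted in 2 of the 4 left-over UT barcodes, with 23 UMIs.

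Others, given here without a fibroblast-marker value beside them, had UMIs in fewer of these barcodes. Slc26a7 had 84 UMIs in 14, Pappa2 45 in 16, the bone morphogenetic protein gene Bmp4 44 in 16, the activin subunit gene Inhba 45 in 15 and the Wnt agonist gene Rspo3 23 in 11 of the 19 UT barcodes. The Wnt-inactivating enzyme gene Notum had 41 in 10 and the Wnt inhibitor gene Wif1 21 in 8. Bmp4 was not confined to this set, with 13 UMIs in 3 of the 4 left-over UT barcodes. Igfbp5, which 69.6% of the UT Malat1-free barcodes carried, had 5 UMIs in 3 of the 19, so the members rich in Igfbp3 were poor in a related binding protein. Across all UT members the Igfbp3 share and the fibroblast share had a rho of -0.14, and in IMQ of 0.17.

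**Figure D4:**
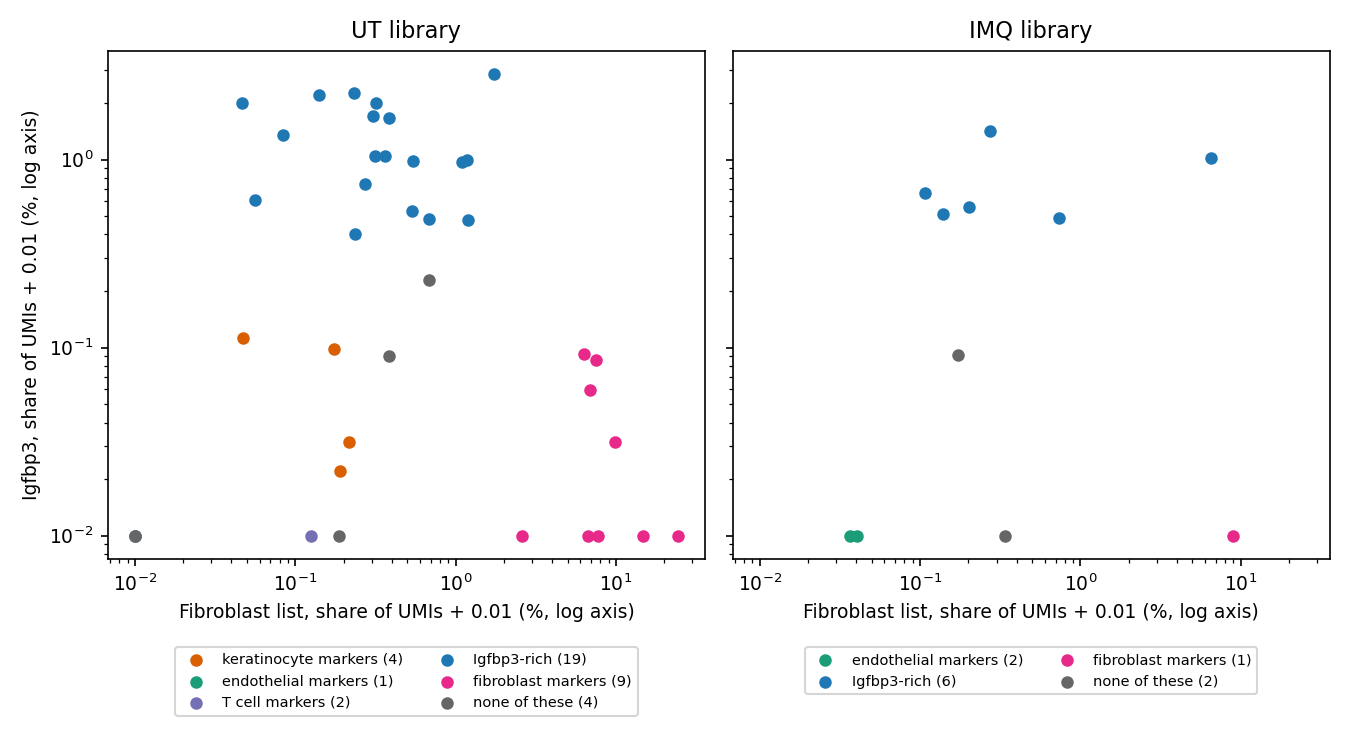
Igfbp3 share against fibroblast-list share of each member's UMIs (percent + 0.01, log axes), coloured by marker set, in UT (left) and IMQ (right). The 19 UT barcodes with Igfbp3 at 0.394% or more have fibroblast shares of at most 1.73%, and the 9 UT barcodes with fibroblast shares of 2.60% or more have at most 3 Igfbp3 UMIs.

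The 9 fibroblast-marker UT barcodes had 1456 to 27467 UMIs and 44 to 2294 Malat1 UMIs, with 2.60 to 24.3% of their UMIs in fibroblast genes (median 7.51%). The fibroblast list, which chose them, held 8.19% of their summed UMIs against 10.7% in the Malat1-free barcodes. Lists that the limit did not use were set against all genes, of which 31.7% of 6781 were higher than in the Malat1-free barcodes and 8.23% lower. Of these lists, 20 of 20 immediate early and heat shock genes (median 3.43) and 19 of 24 speckle genes (median 1.43) were higher. Lower were 71 of 81 ribosomal protein genes (median -1.32) and 10 of 13 mitochondrial genes. Their ribosomal share was 3.16 to 11.0% per barcode.

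Meg3 was present in every UT barcode of this set, though not only there. In UT barcodes 2, 5, 6, 10, 15, 20, 31, 34 and 36 it had 31, 81, 4, 3, 6, 11, 11, 14 and 3 UMIs, against 7 single UMIs in 1225 Malat1-free barcodes, and the log2 ratio was 8.55. Among the Igfbp3-rich UT barcodes the highest Meg3 counts were 12, 4 and 3, in UT barcodes 9, 17 and 24. The only IMQ barcode of this set, IMQ barcode 3, had 10782 UMIs, 8.93% of them in fibroblast genes, with 4 Meg3 and 34 Neat1 UMIs. Set directly against the fibroblast-marker barcodes of UT, the Igfbp3-rich ones held 0.440% against 0.0178% of their UMIs in the dermal papilla and sheath list (Crabp1 at a log2 ratio of 6.13) and were higher in 42 of 81 ribosomal protein genes (median 1.02), where 23.6% of 2452 genes were higher. Their lower fibroblast genes follow from how the fibroblast-marker set was chosen.

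Longer transcripts had higher ratios in the members. Tested protein-coding genes were divided by exon length into a shortest, a middle and a longest group of equal size, from the GENCODE M21 annotation (GRCm38), to which 99.9% of tested genes were matched. In UT 24.0% of the shortest, 36.7% of the middle and 47.7% of the longest genes were higher, and 17.9%, 12.2% and 8.28% were lower. In IMQ 26.2%, 47.0% and 63.6% were higher and 15.5%, 8.61% and 5.59% lower. The median log2 ratios were 0.07, 0.50 and 0.94 in UT and 0.12, 1.01 and 1.87 in IMQ. Among genes with 50 or more UMIs the order was the same, at -0.27, -0.03 and 0.43 in UT and -0.26, 0.11 and 0.73 in IMQ. By genomic span from start to end the shares higher were 29.1%, 34.2% and 45.0% in UT and 32.4%, 45.9% and 58.5% in IMQ. Longer genes had fewer UMIs, with a median of 48, 32 and 31 per gene in the UT groups, and what part this had was not tested beyond the 50-UMI minimum.

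**Figure D5:**
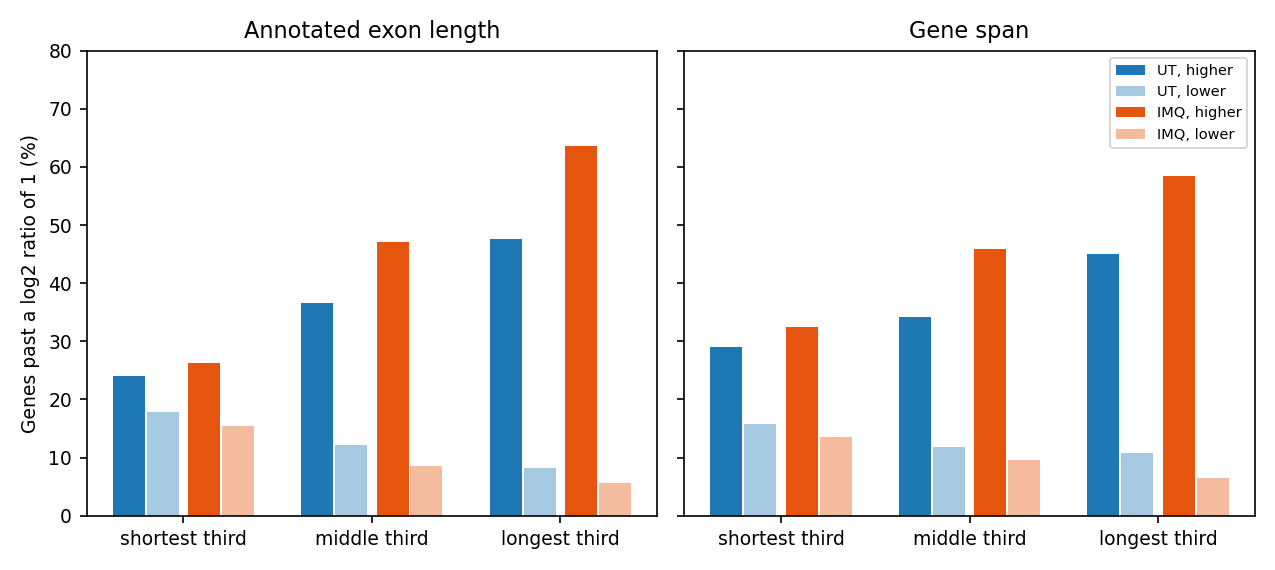
Percent of tested protein-coding genes called higher (solid bars) and lower (pale bars) in the members, on the CPM scale, in the shortest, middle and longest group of equal size by exon length (left) and by genomic span (right), in UT and IMQ. By exon length the share called higher goes from 24.0% to 47.7% in UT and from 26.2% to 63.6% in IMQ.

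The transcripts the set is named for lie at different sites. In the same annotation Malat1 spans chr19:5795690-5802672 on the minus strand as a lincRNA with 1 exon block and overlaps Gm27694 on its own strand and Gm37376 on the other, and Neat1 spans chr19:5824708-5845478, also on the minus strand. Meg3 lies at chr12:109541001-109571726 (plus), Igfbp3 at chr11:7206086-7213923 (minus) and Prlr at chr15:10177238-10349180 (plus). Of the tested lincRNAs as a class, 23 of 54 were higher in UT and 15 of 30 in IMQ, near the share of all genes called there.

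Members of the IMQ library were set against members of the UT library, a comparison of 11 with 39 barcodes of unlike makeup. Of 5906 genes 960 were higher in IMQ (16.3%) and 1293 lower (21.9%), with the interval clear of 0 for 9.91% and 8.2%, and without the deepest barcodes 560 of 4413 (12.7%) were higher and 1118 lower (25.3%). Higher genes were 42.6% of those called, against 33.4% without the deepest barcodes, 33.9% with TMM scaling, 26.9% with equal weight per barcode and 59.6% with a 1 UMI minimum. The Malat1 share of summed UMIs, which the rule bears on, differed by 0.00 on the log2 scale with the deepest barcodes and by -0.55 without them.

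The largest differences lower in IMQ followed the keratinocyte-marker barcodes, which only UT held. They were Krt15 (a bound of -7.38), Krt10 (-7.37), Lgals7 (-7.35), Sfn (-7.01), Sbsn (-5.86), Fxyd3 (-5.62), Ccl27a (-5.59) and Cxcl14 (-5.53), and without those 4 barcodes Sfn, Sbsn and Cxcl14 stood at 2.19, 1.61 and 0.61. The largest differences higher in IMQ were Angptl4 (7.01, interval 4.45 to 12.35), an inhibitor of lipoprotein lipase, the aggrecanase gene Adamts4 (6.15), the hexosamine pathway gene Gfpt2 (5.59), Ghrh (a bound of 4.74), the transcription factor gene Snai1 (4.62), Noct (4.27), Socs2 (4.19) and Rnf113a2 (4.19). Angptl4 had 10, 1, 1, 14, 0, 8, 5, 0, 1, 0 and 0 UMIs in IMQ barcodes 1 to 11 and 1 UMI in the 39 UT members, so it was spread over 7 barcodes. Ghrh had 18 of its 25 UMIs in IMQ barcode 5, and Snai1 23 and 13 of its 46 in IMQ barcodes 1 and 4.

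Neat1 was higher in the IMQ members at 2.48 (2.12 to 2.85) and 2.24 without the deepest barcodes, Meg3 lower at -3.87, and Igfbp3 at 0.67 with and -0.32 without the deepest barcodes. Pdgfra stood at 1.61 (0.59 to 2.62), at 0.48 without the deepest barcodes and at -0.36 with equal weight per barcode, so its call rested on IMQ barcode 1, which held 11 of 18 UMIs, and its direction on how the barcodes were weighted. Of the interferon response genes 6 of 9 were higher in IMQ (median 2.49, the interferon-inducible GTPase gene Iigp1 5.27), where 16.3% of all genes were. Within the Igfbp3-rich barcodes 0 of 3 tested were higher.

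Within the Igfbp3-rich set, 6 IMQ barcodes against 19 UT barcodes, 21.4% of 2462 genes were higher and 23.6% lower (14.7% and 26.1% of 1597 without IMQ barcode 1). Immediate early and heat shock genes were split, with 7 of 21 higher and 4 lower, from the acute phase transcription factor gene Cebpb (3.27) to the heat shock gene Hspa1b (-4.97). Of the matrix genes 7 of 11 were lower. Cebpb had 287, 35, 53, 38, 8 and 0 UMIs in the 6 IMQ barcodes. Has1, a hyaluronan synthase gene picked after its values were seen, had 29, 5, 4, 12, 8 and 0 UMIs in them, 0 in the 19 UT barcodes and 0 in the 1387 IMQ Malat1-free barcodes. Runx3 had 56 UMIs in 5 of the 6, 45 of them in IMQ barcode 1, against 10 in 4 of 19 in UT.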

How the data were processed

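Single-cell libraries (10x Chromium 3′ v3 chemistry, 1 UT and 1 IMQ) were deposited by the authors as raw UMI counts per gene and barcode, made with Cell Ranger 3.0.0 (UT) and 3.1.0 (IMQ) per the file headers and aligned to mm10 per the labels. Replicates were not pooled in the files, and how many mice a library held is not given in the sources used here. The study's own filter (200 to 5000 genes, at most 5% mitochondrial UMIs, DoubletFinder) was not applied to choose members, because the rule takes all deposited barcodes; 33 of 39 UT and 6 of 11 IMQ members met its gene and mitochondrial limits.

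Counts were summed over members and over Malat1-free barcodes and divided by the total (CPM). A gene was compared with 10 or more UMIs over both sets and called at an absolute log2 ratio of 1 or more. A count of 0 was replaced by 3 counts for the whole set, which gives a bound, and a gene whose bound crossed 0 was given no direction. Intervals were exact conditional binomial, Clopper-Pearson for shares, at 95%, and cover counting error only. Detection was compared after thinning to 1100 UMIs. Doublets were scored with scanpy's Scrublet and left in. Library totals were 1524079 (UT) and 2358303 (IMQ) UMIs.

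Genes named were Malat1, Neat1, Meg3, Krt10, Igfbp3 and Pdgfra, then the 15 highest and 15 lowest genes shared by both libraries without the deepest barcodes (at least 100 CPM on the higher side, a UMI in at least 5 UT and 3 IMQ members if higher, neither mitochondrial nor ribosomal protein genes), the 8 highest and 8 lowest for IMQ over UT, and the extremes of each gene list. The members and lists were chosen with earlier results of these data known. Marker-set limits, and the comparison of pairs of barcodes, were chosen after the data were seen. The gene structure came from GENCODE M21 (GRCm38). Alternatives covered scaling (TMM, median of ratios), UMI minimums, the Malat1 limit, the comparison set, mitochondrial and gene filters, equal weight per barcode and leaving out barcodes. The scripts, in Python 3.11.15 with numpy 2.4.6, scipy 1.17.1, pandas 2.3.3, scanpy 1.11.5 and matplotlib 3.10.9, were tested on simulated data.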

Additional observations from a re-analysis of the deposited data

Results flagged for a closer look

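Igf1, the gene for insulin-like growth factor 1, had a log2 ratio of members over Malat1-free barcodes of -1.63 in UT and 1.21 in IMQ, and Psmb8, an immunoproteasome subunit gene, of -1.28 and 1.24. They were singled out as genes of the lists used here, with at least 100 CPM in both libraries, that were called in opposite directions, and the difference between the libraries was not tested. Without the deepest barcodes Igf1 was at -0.98 in UT, short of the limit for a call, and at 1.23 in IMQ, and Psmb8 was at -1.33 and 1.68. The TMM scaling, which lowers every IMQ ratio by 1.50, puts both IMQ values below 0. Over all 5900 genes compared in both libraries 112 (1.90%) were called in opposite directions, 91 of them lower in UT and higher in IMQ, and 90 were without the deepest barcodes, 43 of which were among the 112.

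An IMQ barcode outside the members, with 3 Malat1 UMIs, held 50 Igfbp3 UMIs. It had 647 UMIs, 302 genes and 16.4% mitochondrial UMIs, with 1 Prlr UMI, and the highest Igfbp3 count in an IMQ Malat1-free barcode was 9. The Malat1 rule leaves this barcode out of the Igfbp3-rich set.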

How the results depend on the processing

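Counts and shares moved by no more than 1.5 times, or stayed within their interval, in 131 of 172 recomputations, and single-gene ratios of members over Malat1-free barcodes stayed within their counting interval in 892 of 1118 and none changed sign past the limit. The deepest barcodes, scaling, the UMI minimum and the makeup of the members moved the rest, in ways whose cause was not tested beyond each setting's own construction. Without the deepest barcodes 185 genes were lower in both libraries and 560 higher in IMQ over UT. With at most 5% mitochondrial UMIs 1617 were higher in IMQ and 786 in both, and with members of 200 to 5000 genes 521 were higher in IMQ over UT. With the mitochondrial genes, the ribosomal protein genes, Gm42418 and AY036118 left out of CPM 919 were lower in IMQ. TMM scaling gave 1719 higher and 2223 lower in UT, 1201 and 2434 in IMQ and 558 and 1212 in both, and median-of-ratios scaling 1906 and 2221, 1185 and 2495, and 595 and 1234. The mean of per-barcode shares gave 1231 lower in IMQ and 2209 lower in IMQ over UT. With a 1 UMI minimum 5243 were higher in UT, 5760 in IMQ, 3059 in both and 2183 in IMQ over UT, and with 50 UMIs 600 were higher and 594 lower in UT, 455 higher in IMQ, 170 higher in both, and 163 higher and 247 lower in IMQ over UT. Against Malat1-free barcodes of 500 or more genes 1107 were higher in IMQ and 577 in both. Without thinning the fibroblast list was present in 71.8% of UT and 72.7% of IMQ members. In alternatives chosen after seeing the data, 649 genes were lower in UT and 192 in both without the keratinocyte-marker barcodes; without the keratinocyte-, endothelial- and T cell-marker barcodes 658 were lower in UT, 186 lower in both and 619 higher in IMQ over UT; and with the Igfbp3-rich barcodes alone 527 were higher and 580 lower in IMQ over UT. Between IMQ and UT members 249 of 307 gene ratios stayed within their interval and 7 changed sign. Pdgfra was at -0.36 by the mean of per-barcode shares, and Sfn, Sbsn and Cxcl14 were at 2.19, 1.61 and 0.61 without the keratinocyte-marker barcodes and at 2.36, 1.77 and 0.77 without the endothelial- and T cell-marker ones as well. No paired analysis was possible because each condition had 1 library. Depth limits the IMQ members most, where 11 barcodes, 1 with 46.0% of their UMIs, carry every value.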
